A study of Mus musculus with 6 samples.

Results

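The genes described here are the receptors and ligands of the epidermal growth factor (EGF) receptor family and 1 inhibitor of these receptors, followed in mouse lens tissue after a model of cataract surgery. The 10 members were taken by gene symbol: the receptors Egfr, Erbb2 and Erbb3, the ligands Hbegf, Tgfa, Areg, Ereg, Btc and Nrg1, and the inhibitor Errfi1. All 10 were found among the 24147 rows of each count table, each on 1 row. RNA was sequenced from the lens capsule and the lens epithelial cells still attached to it, after the fiber cells had been removed through a cut in the cornea of living mice. All mice were C57BL/6, wild type and 2 months old, with no other treatment named. Time is the only difference between the groups that the labels give. Of the libraries, 3 were collected immediately after surgery (0 h) and 3 were collected 24 h later. The series calls these biological triplicates. The sources used here do not give the number of eyes or animals pooled in a library.

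Receptors of this family are tyrosine kinases that sit in the cell membrane. A ligand bound to Egfr, Erbb3 or Erbb4 lets receptors pair, and the paired kinases phosphorylate each other and start the Ras, ERK and PI3 kinase cascades. Erbb2 has no known ligand and acts as a partner, while Erbb3 has a weak kinase and depends on its partner. Ligands are made as membrane precursors and are set free by metalloproteases, and Errfi1 (also called Mig6) binds the active kinase of Egfr and holds it back. In wounded epithelia such as skin and cornea, ligands of Egfr are known to be made by the epithelial cells themselves and to drive their migration and division.

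Summed gene counts were 8069314 to 10862573 per library, and 3 counts corresponded to 0.276 to 0.372 CPM (counts scaled to a common library size). Of 13956 genes tested, 2146 were called higher and 1822 lower at 24 h by edgeR's quasi-likelihood test, where called means an adjusted p under 0.05. The lens markers Pax6, Foxe3, Cdh1 and Cryab were detected in all 6 libraries, so the labelled tissue was seen. RNA of photoreceptors was also present at both times, since 6 of its markers summed to 1886 to 5746 CPM at 0 h and 1012 to 4558 CPM at 24 h. In bulk tissue, more cells of a type and more RNA per cell cannot be told apart, which holds for each result that follows.

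At 24 h, 1 receptor, 5 ligands and the inhibitor were higher than at 0 h. Of the 9 members that passed the filter on low counts, 7 were called higher, against a background of 15.4% of all genes tested, and 0 were called lower, against 13.1%. The 7 were Egfr, Hbegf, Tgfa, Ereg, Btc, Nrg1 and Errfi1. Erbb2 and Erbb3 were not called, and Areg had too few counts to be tested. Among the 9 tested, every 24 h library stood above every 0 h library in the same 7, where 22.8% of all genes tested did so. In 0 members did every 24 h library stand below, where 21.9% of all genes tested did so. The libraries of Areg, not tested, also stood apart, but by 0.128 against 0.100 CPM in the closest 2, each with 1 count. Ereg and Nrg1 passed the filter only through their 24 h libraries, so that their direction was partly set by it. With DESeq2 the counts were also 7 higher and 0 lower, and 0 members were lower at an unadjusted p under 0.05 in the edgeR test, where 7 were higher. Those 9 had a median log2 fold change of 1.80, beside -0.03 for all genes tested, and of 1.16 without 24 h replicate 2.

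**Figure D1:**
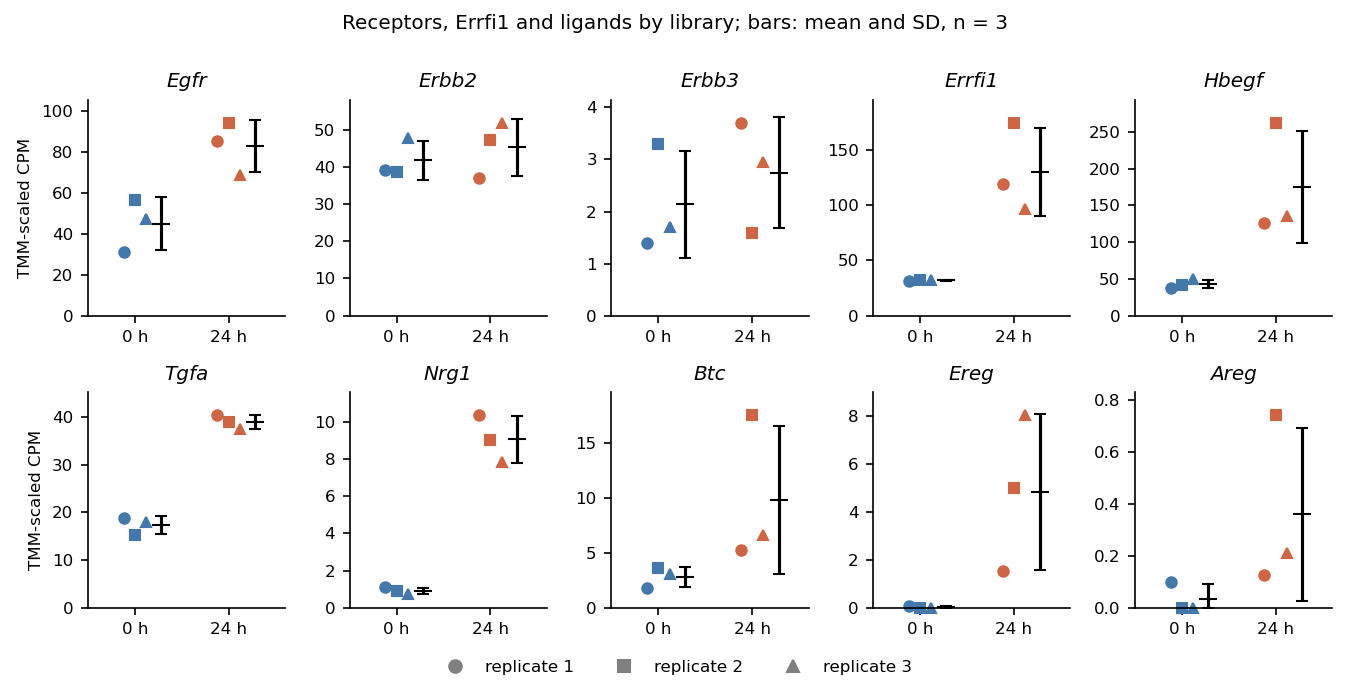
TMM-scaled CPM of the 10 members in each library (y axis, starting at 0, a separate scale for each gene) at 0 h and 24 h; symbols mark the replicate number and black bars the mean and SD of 3 libraries, with bars that would pass below 0 ended at 0. The groups stand apart in Egfr, Errfi1, Hbegf, Tgfa, Nrg1, Btc and Ereg, they overlap in Erbb2 and Erbb3, and Areg stays under 1 CPM in every library.

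Egfr (chromosome 11, 16752203 to 16913907 on mm10, plus strand) is the receptor of Hbegf, Tgfa, Areg, Ereg and Btc. It had 30.9, 56.7 and 47.5 TMM-scaled CPM in 0 h replicates 1 to 3 and 85.4, 94.4 and 69.0 CPM in 24 h replicates 1 to 3. The lowest library at 24 h lay above the highest at 0 h, and 0 h replicate 1 was the lowest of the 6. The mean was 45.1 ± 13.1 CPM (SD, n = 3) at 0 h and 82.9 ± 12.8 CPM at 24 h, a log2 fold change of 0.88 ± 0.23 (SE), or 1.84-fold (edgeR adjusted p = 0.0193). Its call was lost without 0 h replicate 3 (adjusted p = 0.0545), without 24 h replicate 2 (adjusted p = 0.0552) or when tested against a 1.5-fold change (adjusted p = 0.198). Over 15 alternatives its adjusted p spanned 0.00331 to 0.198.

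Erbb2 (chromosome 11, 98412484 to 98437716), the partner with no known ligand, lay at 39.0, 38.5 and 47.8 CPM at 0 h and at 36.9, 47.3 and 51.8 CPM at 24 h. These groups overlapped. The log2 fold change was 0.12, with a 95% interval of -0.26 to 0.51 (adjusted p = 0.644). Erbb3 (chromosome 10, 128569368 to 128589501), a receptor of neuregulins, was low throughout, with 1.4, 3.30 and 1.71 CPM at 0 h and 3.70, 1.59 and 2.96 CPM at 24 h. Its log2 fold change of 0.35 had a wide 95% interval, -0.85 to 1.55 (adjusted p = 0.668), and the groups overlapped.

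Hbegf (chromosome 18, 36504927 to 36515805, minus strand) encodes heparin-binding EGF-like growth factor, which binds Egfr and Erbb4. It was measured at 38.1, 41.1 and 49.7 CPM at 0 h and at 126, 262 and 135 CPM at 24 h. All 24 h libraries were higher than all 0 h libraries, and 24 h replicate 2 was well above the other two. Mean CPM rose from 43.0 ± 6.01 to 175 ± 75.9, with a log2 fold change of 2.02 ± 0.29 (adjusted p = 0.00177), and it was called in all 15 alternatives, with log2 fold changes of 1.61 to 2.25.

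Tgfa (chromosome 6, 86195251 to 86275449, plus strand) encodes transforming growth factor alpha, a ligand of Egfr. It had 18.8, 15.3 and 18.0 CPM at 0 h and 40.3, 39.0 and 37.4 CPM at 24 h. Replicates lay close together at both times, and the groups were far apart for their spread. Mean CPM rose from 17.4 ± 1.85 to 38.9 ± 1.49, with a log2 fold change of 1.16 ± 0.16 (adjusted p = 0.00087). In contrast to Hbegf, Tgfa was not highest in 24 h replicate 2. Exons of Tgfa share 118 bases with Gm43917, on the opposite strand in the GENCODE M21 annotation. The sources used here do not give the strand setting of the counting.

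Btc (chromosome 5, 91357261 to 91402994, minus strand) encodes betacellulin, which binds Egfr and Erbb4. It was at 1.80, 3.60 and 3.05 CPM at 0 h and at 5.24, 17.5 and 6.65 CPM at 24 h. The groups did not overlap, and 24 h replicate 2 carried most of the rise. The log2 fold change of 1.80 ± 0.51 (adjusted p = 0.0298) was 1.08 without 24 h replicate 2, and Btc was then not called (adjusted p = 0.115). It was not called either without 0 h replicate 1, 2 or 3 (adjusted p = 0.102, 0.0563 and 0.0813), with limma-voom (adjusted p = 0.0673) or against a 1.5-fold change (adjusted p = 0.0886). Over 15 alternatives its adjusted p spanned 0.00445 to 0.115.

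Areg and Ereg are neighbours on chromosome 5, and Btc lies on the same stretch. Ereg (91074617 to 91093649) encodes epiregulin, a ligand of Egfr and Erbb4. It had 1, 0 and 0 counts in the 0 h libraries and 12, 47 and 76 counts in the 24 h libraries, or 1.53, 4.98 and 8.02 CPM at 24 h. Counts were thus found in every 24 h library, while a single read was found at 0 h. The ratio of summed counts, 135 against 1, was 142 with an exact 95% counting interval of 25.1 to 5665, and the edgeR test gave an adjusted p of 0.00184. The single 0 h count was in replicate 1, and the fitted log2 fold change of 6.64 was 8.47 without that library and 5.78 with limma-voom. Exons of Ereg share 141 bases with an antisense transcript, Gm19610, in the GENCODE M21 annotation, and the sources used here do not say how strand was treated in counting.

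Areg (91139615 to 91148432, plus strand) encodes amphiregulin, a ligand of Egfr. It had 1, 0 and 0 counts at 0 h and 1, 7 and 2 counts at 24 h. These counts are near the floor of 3 per library, and the gene was not tested. The ratio of summed counts, 10 against 1, was 10.6 with a counting interval of 1.5 to 458, and most of the reads were in 24 h replicate 2.

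Nrg1 (chromosome 8, 31818028 to 31918203, minus strand) encodes neuregulin, a ligand of Erbb3 and Erbb4. It had 1.10, 0.900 and 0.731 CPM at 0 h and 10.3, 9.01 and 7.81 CPM at 24 h. Replicates agreed closely at both times, and the groups were far apart. Mean CPM rose from 0.911 ± 0.185 to 9.06 ± 1.27, with a log2 fold change of 3.29 ± 0.37, or 9.75-fold (adjusted p = 0.00036). The deposited gene model covers only part of the locus, since GENCODE M21 places Nrg1 at 31814551 to 32884029 with 10351 exon bases, against 2103 bases in the deposited length. Reads from forms that start upstream of the deposited span were therefore counted only in the exons they share with it.

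Errfi1 (chromosome 4, 150855091 to 150868880, plus strand), the feedback inhibitor of Egfr, had 31.7, 31.9 and 32.4 CPM at 0 h and 119, 175 and 96.9 CPM at 24 h. The 0 h libraries were almost alike, and the lowest 24 h library was far above them. Mean CPM rose from 32.0 ± 0.354 to 130.4 ± 40.1, with a log2 fold change of 2.03 ± 0.21, or 4.07-fold (adjusted p = 0.000284). It was called in all 15 alternatives, with log2 fold changes of 1.76 to 2.20. Of the 7 members called higher, 4 were highest in 24 h replicate 2 (Egfr, Hbegf, Btc and Errfi1), 2 in replicate 1 (Tgfa and Nrg1) and 1 in replicate 3 (Ereg).

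**Figure D2:**
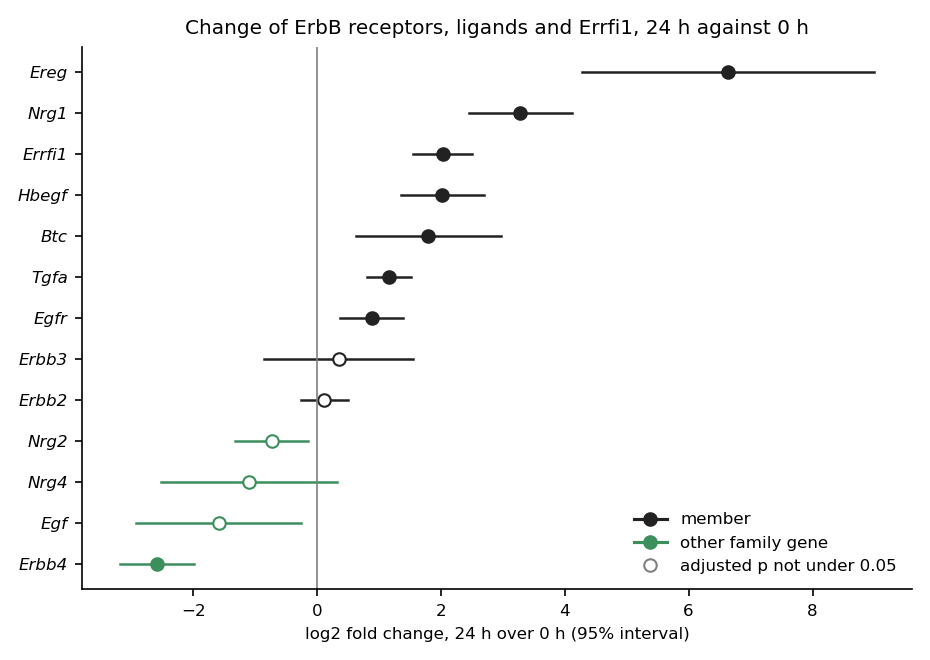
Log2 fold change of 24 h over 0 h with its 95% interval (x axis) for the 9 members tested and, in green, the other 4 genes of the family tested; open circles did not reach an adjusted p under 0.05. The 7 members called lie to the right of 0, Erbb2 and Erbb3 have intervals that cross 0, and Erbb4 lies to the left at -2.58.

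RefSeq promoter windows of GRCm38.p6, from 250 bases before to 50 bases after a start site, were matched by symbol for 6 of the 10 members, Areg, Btc, Egfr, Erbb2, Errfi1 and Tgfa, in 7 windows. They were searched on both strands for 5 motifs: the cAMP response element (CRE), with the letters TGACGTCA, the AP-1 site, which reads TGANTCA, the serum response element, the NF-kB site and the core promoter motif known as the TATA box, searched as TATAAA. The CRE and the TATA box were each found in the Areg window and in 1 of the 2 Errfi1 windows, and none of the 5 motifs was found in the other 5. Of all 32851 mouse windows of the same length, 1.79% held the CRE, 13.6% the TATA box, 7.81% the AP-1 site, 1.63% the serum response element and 5.80% the NF-kB site. The 100 bases just before the start site are shown 5′ to 3′ on the plus strand for Areg (chr5:91139499-91139598) and Errfi1 (chr4:150854970-150855069), because both hold the same pair of motifs, and for Tgfa (chr6:86195122-86195221) and Egfr (chr11:16752103-16752202), which were called higher and hold neither. Capitals mark the CRE and the TATA box.
Areg: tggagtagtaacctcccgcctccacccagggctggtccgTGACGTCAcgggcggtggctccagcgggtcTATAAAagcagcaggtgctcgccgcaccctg
Errfi1: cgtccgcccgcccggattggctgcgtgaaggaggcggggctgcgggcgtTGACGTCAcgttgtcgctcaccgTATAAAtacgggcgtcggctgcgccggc
Tgfa: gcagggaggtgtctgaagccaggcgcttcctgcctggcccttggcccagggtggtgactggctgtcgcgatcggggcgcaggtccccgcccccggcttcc
Egfr: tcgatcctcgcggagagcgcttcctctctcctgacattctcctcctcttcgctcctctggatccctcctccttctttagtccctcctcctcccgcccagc

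In Areg the CRE lies 61 to 54 bases before the start site and the TATA box 31 to 26 bases before it. In Errfi1 the distances are 51 to 44 and 28 to 23 bases. A match of letters is a description of the window and was not measured as binding. The 2 genes that hold the pair differed in level at 24 h, with means of 130.4 CPM for Errfi1 and 0.360 CPM for Areg. Their changes were not compared, since Areg was not tested.

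Levels between genes were compared per length, as TMM-scaled RPKM, which is CPM divided by the deposited gene length in kilobases. Among receptors at 0 h, Erbb4 was highest at 12.8 ± 1.92 RPKM (n = 3), followed by Erbb2 at 8.36 ± 1.04, Egfr at 7.0 ± 2.03 and Erbb3 at 0.531 ± 0.254. The libraries of Erbb2 and Egfr overlapped in that order, and the other neighbours did not. At 24 h the order was Egfr at 12.9 ± 1.99 RPKM, Erbb2 at 9.07 ± 1.53, Erbb4 at 2.13 ± 0.802 and Erbb3 at 0.684 ± 0.267, with no overlap between neighbours. The gap between Egfr and Erbb2 at 24 h was narrow, from 10.7 RPKM in the lowest Egfr library to 10.4 RPKM in the highest Erbb2 library. It closed over the exon bases of GENCODE M21 within the deposited span, a length chosen after seeing the data, with 9.76 and 9.98 RPKM in the same libraries. Erbb4 went from the first place to the third over the deposited lengths. Its GENCODE exon bases were not worked out, so its place was not checked over them.

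Hbegf was the ligand with the most RNA per length at both times, at 18.1 ± 2.53 RPKM at 0 h and 73.6 ± 32.0 RPKM at 24 h, and its libraries stood above those of every other ligand. Tgfa was at 4.11 ± 0.436 and 9.20 ± 0.352 RPKM. At 0 h it overlapped with Nrg2, at 4.68 ± 0.743 RPKM, and at 24 h it stood alone in the second place. Nrg1 and Btc were at 0.433 ± 0.0881 and 0.979 ± 0.32 RPKM at 0 h and at 4.31 ± 0.602 and 3.41 ± 2.33 RPKM at 24 h, where they overlapped. Ereg reached 1.17 ± 0.785 RPKM and Areg 0.301 ± 0.278 RPKM at 24 h. Lengths follow the deposited models, which hold fewer exon bases than GENCODE M21 places in the same span: 2375 against 4834 for Hbegf, 2876 against 4520 for Btc, 4229 against 6192 for Tgfa, 2103 against 5201 for Nrg1 and 6438 against 7075 for Egfr. Over the GENCODE bases Hbegf was at 36.1 RPKM and Tgfa at 6.28 RPKM on average at 24 h.

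**Figure D3:**
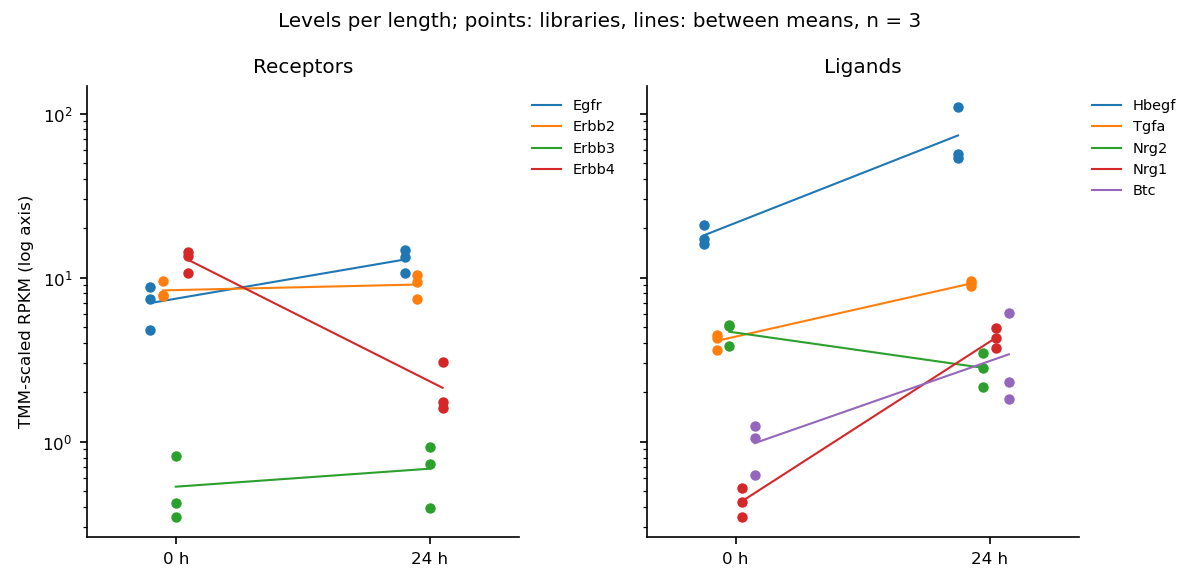
TMM-scaled RPKM (log axis) of the 4 receptors and of 5 ligands at 0 h and 24 h; points are libraries and lines join the means of 3 libraries. Erbb4 is the highest receptor at 0 h and lies below Egfr and Erbb2 at 24 h, while Hbegf lies above the other ligands at both times.

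Ratios within a library compared ligand and inhibitor with receptor. The ratio of Errfi1 to Egfr RPKM was 2.19, 1.2 and 1.46 at 0 h and 2.98, 3.95 and 2.99 at 24 h, so the inhibitor gained on the receptor and the groups did not overlap. Hbegf to Egfr was 3.34, 1.97 and 2.84 at 0 h and 4.01, 7.53 and 5.32 at 24 h, also without overlap. Tgfa to Egfr was 0.926, 0.411 and 0.578 at 0 h and 0.719, 0.630 and 0.824 at 24 h, and these groups overlapped. Hbegf to Tgfa, the ratio of the main ligands, was 3.61, 4.78 and 4.91 at 0 h and 5.58, 11.97 and 6.45 at 24 h.

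Of the other receptor and ligands of the family, 4 of 6 were tested. Of these 0 were called higher and 1 lower, against 15.4% and 13.1% of all genes tested. In all 4, every 24 h library stood below every 0 h library, where 21.9% of all genes tested did so. Their median log2 fold change was -1.34. Egf and Nrg4 would not have passed the filter on their 24 h libraries alone, so that their direction was partly set by it. Erbb4, a receptor of neuregulins that also binds Hbegf, Btc and Ereg, had 57.4, 45.3 and 60.9 CPM at 0 h and 7.41, 6.79 and 13.0 CPM at 24 h. The groups were far apart, and the fall was 5.99-fold (log2 fold change -2.58 ± 0.26, adjusted p = 0.000251), with log2 fold changes of -2.94 to -2.41 over 15 alternatives, in all of which it was called. Erbb4 to Egfr RPKM was 2.80, 1.21 and 1.94 at 0 h and 0.131, 0.109 and 0.284 at 24 h. Nrg2, another neuregulin, averaged 13.2 ± 2.1 CPM at 0 h against 7.97 ± 1.87 CPM a day later, a difference not called (adjusted p = 0.0667). It was called lower with the replicate number as a block (adjusted p = 0.0418) and without 24 h replicate 2 (adjusted p = 0.0477), and its adjusted p spanned 0.0418 to 0.479 over 15 alternatives. Egf and Nrg4, named after their values were seen, averaged 2.26 ± 0.901 and 1.58 ± 0.451 CPM at 0 h, against 0.735 ± 0.288 and 0.728 ± 0.4 CPM at 24 h. Neither passed the test (adjusted p = 0.0757 and 0.235). Epgn had 0 counts in 5 libraries and 1 count in 24 h replicate 3.

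Markers of other cells moved beside Erbb4. In each marker list, counts stand beside 15.4% of all genes tested called higher and 13.1% called lower. Of 6 genes of pigment and ciliary epithelium, 4 were lower at 24 h, with Rgr at 58.7 ± 26.1 and 1.96 ± 0.241 CPM, and their sum went from 136 to 241 CPM at 0 h to 20.1 to 49.5 CPM at 24 h. Among the 4, Rpe65 and Lrat had 26 and 5 summed counts at 24 h. They would not have passed the filter on their 24 h libraries alone, so that their direction was partly set by it. Rlbp1, of the same list, was not called (42.9 ± 18.6 and 23.9 ± 14.2 CPM). Of 6 lens epithelial genes 3 were lower, among them Cryab (adjusted p = 0.0275), while Pax6 was not called (adjusted p = 0.0905). Of 6 fiber genes 5 were lower, with Cryba1 at 13193 ± 6161 and 4207 ± 418 CPM and Crygs at 6719 ± 2518 and 2034 ± 164 CPM. Their part in the fall of Erbb4 was not tested.

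Other marker lists were read beside the ligands. All 6 neutrophil genes tested, of 8 found, were higher, with sums of 5.81 to 16.3 CPM at 0 h and 95.4 to 182 CPM at 24 h, and Elane had 0 counts in every library. Among them Csf3r went from 1.97 ± 0.498 to 37.5 ± 10.7 CPM and Itgam from 3.70 ± 3.17 to 37.2 ± 20.6 CPM. Of the 6, Itgam, Csf3r and Cxcr2 were highest in 24 h replicate 3, and S100a8, S100a9 and Retnlg were highest in replicate 2. The last 3 had 4, 1 and 0 summed counts at 0 h and passed the filter only through their 24 h libraries, so that their direction was partly set by it. Itgam would not have passed on its 0 h libraries alone either. Macrophage genes were higher in 1 of 6, with Lyz2 and Csf1r not called (adjusted p = 0.170 and 0.0554), and summed to 54.6 to 135 CPM at 0 h and 64.3 to 137 CPM at 24 h.

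Among 5 corneal epithelial genes tested, 2 were higher and 1 was lower, and Perp rose (88.7 ± 8.58 to 189 ± 3.76 CPM) while Aldh3a1 fell (873 ± 202 to 429 ± 165 CPM). At 0 h both stood far above Krt12 and Krt5 of the same list, which averaged 0.870 and 1.07 CPM. Which cells held the Perp and Aldh3a1 RNA was not tested. Krt5, a keratin gene of basal epithelium, was called higher (adjusted p = 0.0451), with 1.30, 0.20 and 1.71 CPM at 0 h and 25.2, 0.636 and 34.2 CPM at 24 h. Its groups overlapped, and it would not have passed the filter on the libraries of either time alone. The corneal keratin gene Krt12 had 0.30, 1.70 and 0.609 CPM at 0 h and 9.45, 0.212 and 35.6 CPM at 24 h and did not pass (adjusted p = 0.0730). Both were thus high in 24 h replicates 1 and 3 and not in replicate 2. The 24 h library in which each member called was highest is given above, and whether it follows these keratins was not tested. Krt14 had 0 counts in all 0 h libraries and 15 counts at 24 h. Of 6 Schwann cell and melanocyte genes tested 1 was higher, Dct, at 47.3 ± 25.2 and 268 ± 213 CPM, and Pmel was not called (adjusted p = 0.113). Their sum was 55.8 to 148 CPM at 0 h and 104 to 849 CPM at 24 h, lowest of the 24 h libraries in replicate 2. Endothelial genes were higher in 2 of 5, with Cdh5 at 0.622 ± 0.41 and 8.28 ± 4.46 CPM and Kdr not called (adjusted p = 0.187). The 2 called, Cdh5 and Pecam1, had 18 and 34 summed counts at 0 h. They would not have passed the filter on their 0 h libraries alone, so that their direction was partly set by it. Of the 6 photoreceptor genes 0 were called, among them Gnat1 (adjusted p = 0.720). The part of these cells in the ligand results was not tested.

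The rest of the pathway was read from 4 lists of genes around and below the receptors. Counts in each list stand beside 15.4% of all genes tested called higher and 13.1% called lower. Genes of ligand shedding were called higher in 2 and lower in 0 of 7 tested, with a median log2 fold change of 0.13. Adam12, a metalloprotease able to release Hbegf, went from 8.36 ± 2.97 to 149 ± 18.7 CPM, a 17.9-fold rise (log2 fold change 4.16 ± 0.25, adjusted p = 2.33e-05). Rhbdf1, an inactive rhomboid protein that helps Adam17 mature, rose 1.65-fold (adjusted p = 0.0054), but did not pass against a 1.5-fold change (adjusted p = 0.284, and from 0.000563 to 0.284 over 15 alternatives). Adam17 itself, the main protease for Tgfa, Areg and Hbegf, lay at 74.4 ± 10.2 and 72.9 ± 18.3 CPM, a difference that was not called (adjusted p = 0.933).

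For receptor turnover and restraint, 3 of 12 genes tested were higher and 1 was lower, with a median of 0.11. Sh3kbp1, an adaptor that works with Cbl in receptor endocytosis, rose 2.34-fold (adjusted p = 0.00464). Ptpn1, a tyrosine phosphatase that acts on Egfr, rose 1.78-fold (adjusted p = 0.00625), but did not pass against a 1.5-fold change (adjusted p = 0.156, and from 0.000743 to 0.156 over 15 alternatives). Lrig1, which lowers the amount of receptor protein, lay at 183 ± 32.3 and 201 ± 19.3 CPM, which did not pass the test (adjusted p = 0.603). Errfi1 thus had a larger fold change than any gene called in this list.

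Of 24 adaptors and kinases 5 were higher and 5 lower, with a median of 0.04. These counts lie near the shares over all genes tested (15.4% and 13.1%) and are not read as a result about the list. Stat3, a transcription factor that receptors of this family can activate, rose 1.74-fold (adjusted p = 0.00262), and Gab1, a docking protein of Egfr, fell 1.58-fold (adjusted p = 0.00567). Neither passed against a 1.5-fold change (adjusted p = 0.136 and 0.450, where the 15 alternatives spanned 9.64e-07 to 0.136 for Stat3 and 0.00087 to 0.450 for Gab1). Among genes of the Ras and ERK steps, Nras, Hras and Map2k2 were called higher and Sos2, Braf and Mapk3 lower.

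Among 16 ERK response and feedback genes, 13 were higher and 0 lower, with a median of 2.06, where 15.4% and 13.1% of all genes tested were. Fosl1 and Dusp5, with 2 and 46 summed counts at 0 h, would not have passed the filter on their 0 h libraries alone. Their direction was thus partly set by it. Ier3 and Phlda1, both quickly induced by growth factors, rose 13.7-fold (9.87 ± 1.02 to 135 ± 33.3 CPM, adjusted p = 1.44e-05) and 7.71-fold (6.19 ± 1.07 to 47.6 ± 13.3 CPM, adjusted p = 9.6e-05). Dusp6, a phosphatase of ERK chosen after its values were seen, went from 31.2 ± 3.28 to 65.2 ± 8.71 CPM (adjusted p = 0.00125). The 3 genes not called were Etv5, Spry1 and Spred2. Many receptors other than those of this family act on these genes, and which signal moved them was not tested. Over all 5 lists 23 genes were higher and 7 lower of 63 tested, and against a 1.5-fold change 13 and 1.

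**Figure D4:**
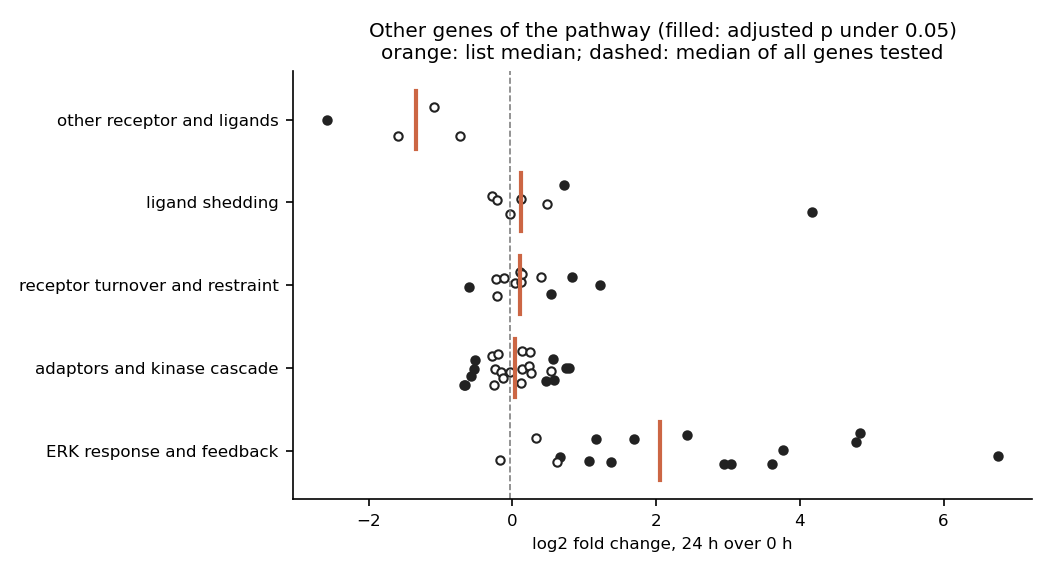
Log2 fold change of 24 h over 0 h (x axis) of the pathway genes tested, by list; filled points had an adjusted p under 0.05, orange bars are list medians and the dashed line is the median of all genes tested. The ERK response list lies mostly to the right, with a median of 2.06, and the median of adaptors and kinases lies near 0.

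Genes with the pattern most like that of a member were named by Pearson's r of log2(CPM + 1) over the 6 libraries, among 9692 genes with at least 10 CPM on average. For Egfr these were Ago2 (r = 0.993), Ccdc55 (0.992) and G530011O06Rik (0.990). For Hbegf they were Oaf (0.998), Lamtor3 (0.997) and Dazap1 (0.996), and for Tgfa Cacul1 (0.999), Ddx10 (0.999) and Mars (0.998). For Errfi1 they were Srxn1 (1.000), Fam129b (0.999) and Lif (0.999). Values this high are common when 6 libraries fall into 2 groups and many genes are searched, and they share libraries and depth.

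**Figure D5:**
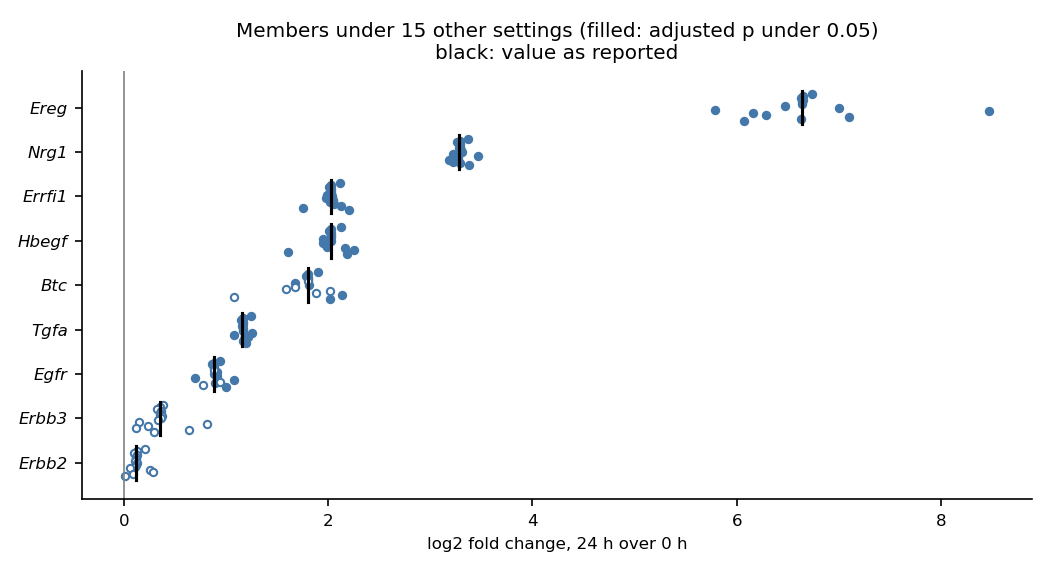
Log2 fold change of 24 h over 0 h (x axis) of the 9 members tested under 15 other settings, with filled points at an adjusted p under 0.05 and black bars at the value as reported. Hbegf, Tgfa, Nrg1, Ereg and Errfi1 keep filled points throughout, Egfr and Btc have open points, and no point lies left of 0.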

How the data were processed

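RNA sequencing of 6 libraries was analysed. Each deposited table holds whole-number counts and RPKM per gene, per the file headers. The deposited RPKM equal count over gene length and summed counts, within rounding, and entered no test. Per the submitters' processing notes, the tools were HTSeq 0.6.1p1, edgeR 3.16.5, TopHat2 2.1.0, Trim Galore 0.4.4, SAMtools 1.4, bedtools 2.17 and FastQC, and the build was mm10. The sources used here do not give the annotation or the strand setting. The length column is headed as coding length, but 37.7% of lengths are multiples of 3, so untranslated exons are included.

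Genes were filtered with filterByExpr, scaled by TMM and compared between 24 h and 0 h with the quasi-likelihood test of edgeR (version 4.0.16 in R 4.3.3, robust, two-sided, no covariate), with Benjamini-Hochberg adjustment over 13956 genes. Standard errors are the log2 fold change over the square root of F. CPM and RPKM are TMM-scaled. The 95% counting intervals and the floor of 3 counts cover counting error only. Alternatives were DESeq2 1.42.0, limma-voom (limma 3.58.1), other scalings and filters, a 1.5-fold threshold, a replicate block and leaving out each library.

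The members, the 5 pathway lists (66 genes) and the 9 marker lists (58 of 61 genes found) were chosen with earlier results of these data known. Named were all members, the 2 genes with the lowest p in each pathway list, the 2 highest in each marker list and the 3 closest patterns to each of 4 members. Others were named after their values were seen. A gene that this rule names is not reported here. Sequences are from RefSeq (GRCm38.p6), and exon overlaps from GENCODE M21.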

Additional observations from a re-analysis of the deposited data

How the results depend on the processing

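No member changed direction in any of the 15 alternatives, and Hbegf, Tgfa, Nrg1, Ereg and Errfi1 were called in all of them, against 12 for Egfr and 9 for Btc. Members called higher ranged from 5 to 7 and members called lower stayed at 0 when each library was left out. Over all genes, leaving out a library gave 1568 to 1912 higher and 1059 to 1683 lower, with the lowest count of lower genes without 0 h replicate 3. Pathway genes were then 19 to 23 higher and 4 to 6 lower, with 4 lower without 0 h replicate 3 or without 24 h replicate 1. Against a 1.5-fold change 1048 genes were higher and 624 lower, and 5 members were higher and 0 lower. The same threshold left 13 pathway genes higher and 1 lower, which follows from the stricter null. Library totals alone gave 2329 higher and 1450 lower genes, a shift of the split towards higher calls, and 7 higher members. Same-numbered libraries of the 2 times had correlated deviations of 0.0929, 0.232 and 0.423 (Pearson's r across genes). Of the 6 other pairs 5 were below 0 (-0.37 to -0.03), and each 0 h library correlated best with its own number, but 24 h replicate 1 correlated better with 0 h replicate 2 (0.182). With 1 pair under 0.1 and no label that ties them, the numbers were not used as a pairing, and whether the pairs share a factor was not tested. With that replicate block 7 members were higher and 0 lower, 25 and 8 pathway genes, and 2314 and 2181 genes in all. Depth limited Areg, which had 1 count at 0 h and 10 counts at 24 h.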
